A study of Mus musculus with 6 samples.

Results

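Keratins of the luminal and of the basal or squamous layers of the mammary epithelium were followed in 6 mammary tumors of MMTV-PyVmT mice. Tumors 5333, 5346 and 5347 lacked JAM-A (JAM-A−/−), and 5369, 5370 and 5393 had it (JAM-A+/+), 3 of each genotype. Values of single tumors are given in this order. The 10 keratins were taken by name, as 4 luminal genes (Krt7, Krt8, Krt18 and Krt19) and 6 basal or squamous genes (Krt5, Krt14, Krt15, Krt17, Krt6a and Krt6b), out of 19938 genes that have a probe set with exactly 1 symbol. Each of the 10 has 1 such probe set. All mice carried the polyoma virus middle T oncogene, which the MMTV promoter switches on mainly in mammary epithelium, and the JAM-A−/− mice lacked JAM-A in every cell of the body. The tumors were taken at an early stage, each was measured on an Affymetrix Mouse Gene 1.0 ST array of its own, and no age, strain or litter is given for single arrays. Whether each tumor is from a mouse of its own is not stated in the labels, and p-values therefore cover only the spread between these tumors.

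Keratins are the intermediate filaments of epithelial cells. A filament is built from pairs of 1 type I and 1 type II keratin, and the pair in use changes with the kind of epithelium. In the mammary gland the milk-secreting luminal cells pair Krt8 with Krt18 and Krt19, while the basal, myoepithelial cells pair Krt5 with Krt14. Krt6a, Krt6b and Krt17 are known from activated and stratified epithelium such as wounded epidermis, and Krt1 with Krt10 from the upper, cornifying layers of skin. Most tumors of this mouse model are regarded as luminal.

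F11r, which encodes JAM-A, was measured at 5.91, 5.55 and 6.53 without JAM-A and at 10.1, 10.23 and 10.47 with JAM-A, on the log2 scale of the deposited values. The groups lay far apart, with a log2 fold change (JAM-A−/− minus JAM-A+/+) of -4.27 (SE 0.24, n = 3 per group, limma with Benjamini-Hochberg adjustment over all probe sets, adjusted p = 0.00667). It was the only 1 of 35557 probe sets with an adjusted p under 0.05, which is 0.00281%. Of the markers that define epithelium, Epcam, a surface protein, was measured between 11.62 and 12.07 and Cdh1, E-cadherin, between 11.03 and 11.64 in the 6 tumors. Array medians lay between 6.23 and 6.34. Tumor 5369 was the lowest of the 6 for 36.2% of all genes, and tumor 5347 the highest for 42.2%.

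The upstream regions of 4 of these genes are shown because they let the luminal pair Krt8 and Krt18 be set beside Krt7 and the basal gene Krt5. They are the RefSeq promoter windows of build GRCm38.p6, from 250 bases before to 50 bases after the annotated start, read on the strand of the gene, and 5 of the 10 keratins matched an entry. Capitals mark matches on either strand to TATAAA, the box that places the start site in many genes, to ATAAANG, a looser form of that box (added after the windows had been read), to GGGCGG, the site of Sp1, to GCCNNNGGC, the core that AP-2 factors bind, or to TGANTCA, the core that AP-1 binds, and neighbouring matches overlap.
Krt8 (chr15:102004293-102004592, minus strand): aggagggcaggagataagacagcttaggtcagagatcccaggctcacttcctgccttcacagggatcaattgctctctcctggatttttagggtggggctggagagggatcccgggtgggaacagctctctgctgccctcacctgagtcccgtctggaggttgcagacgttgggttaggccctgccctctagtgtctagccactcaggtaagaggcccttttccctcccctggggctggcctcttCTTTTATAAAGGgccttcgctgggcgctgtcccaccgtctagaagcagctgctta
Krt18 (chr15:102027966-102028265, plus strand): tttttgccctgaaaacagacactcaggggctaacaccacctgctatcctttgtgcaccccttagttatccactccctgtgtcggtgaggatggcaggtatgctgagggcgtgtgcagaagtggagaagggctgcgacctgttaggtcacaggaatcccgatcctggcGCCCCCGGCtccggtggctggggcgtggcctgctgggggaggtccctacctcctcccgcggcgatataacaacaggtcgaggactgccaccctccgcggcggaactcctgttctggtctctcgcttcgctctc
Krt7 (chr15:101412153-101412452, plus strand): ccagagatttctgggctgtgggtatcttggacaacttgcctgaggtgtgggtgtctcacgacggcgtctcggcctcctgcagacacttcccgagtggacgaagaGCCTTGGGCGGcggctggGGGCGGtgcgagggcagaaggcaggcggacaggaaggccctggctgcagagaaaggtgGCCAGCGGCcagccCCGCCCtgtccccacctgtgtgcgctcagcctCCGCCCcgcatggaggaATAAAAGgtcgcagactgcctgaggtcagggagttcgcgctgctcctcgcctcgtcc
Krt5 (chr15:101712856-101713155, minus strand): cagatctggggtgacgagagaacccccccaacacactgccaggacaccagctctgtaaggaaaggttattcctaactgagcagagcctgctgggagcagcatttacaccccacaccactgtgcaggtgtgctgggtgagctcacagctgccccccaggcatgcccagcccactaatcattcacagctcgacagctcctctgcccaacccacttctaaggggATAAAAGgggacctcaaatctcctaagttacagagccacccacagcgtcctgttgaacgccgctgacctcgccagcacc

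The Krt8 window held both of these boxes on both strands in 1 overlapping stretch at the annotated start. The Krt18 window held neither and had 1 match to GCCNNNGGC. The Krt7 window held 4 matches to GGGCGG, 2 to GCCNNNGGC and 1 to ATAAANG, and the Krt5 window held 1 match to ATAAANG alone. TGANTCA was in none of the 4. Of all 32851 promoter windows of this length, 13.6% held TATAAA, 13% held ATAAANG, 35.7% GGGCGG, 16.6% GCCNNNGGC and 7.81% TGANTCA. A match describes the letters and is no evidence of binding.

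None of the 10 keratins passed the test over all probe sets at an adjusted p under 0.05, and none met the looser signature criteria (a fold change of at least 1.3 with an unadjusted p under 0.05), which 8.3% of all probe sets met. All 10 log2 fold changes were above 0, as were 71.8% of 19938 genes, but 8 were with centring on epithelial genes and 7 with either quantile normalization. The median of all genes was 0.09, and 8 of the 10 exceeded it, but 5 of the 10 exceeded the median of that fit without tumor 5369, and 6 without tumor 5333 or 5346. The median log2 fold change was 0.34 for the luminal and 0.16 for the basal or squamous keratins, a difference smaller than the SD between tumors of a genotype of the luminal minus basal or squamous balance, 0.28. At an unadjusted p under 0.05, without a fold threshold, 1 of the 10 passed (Krt7), against 10.9% of all probe sets.

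**Figure D1:**
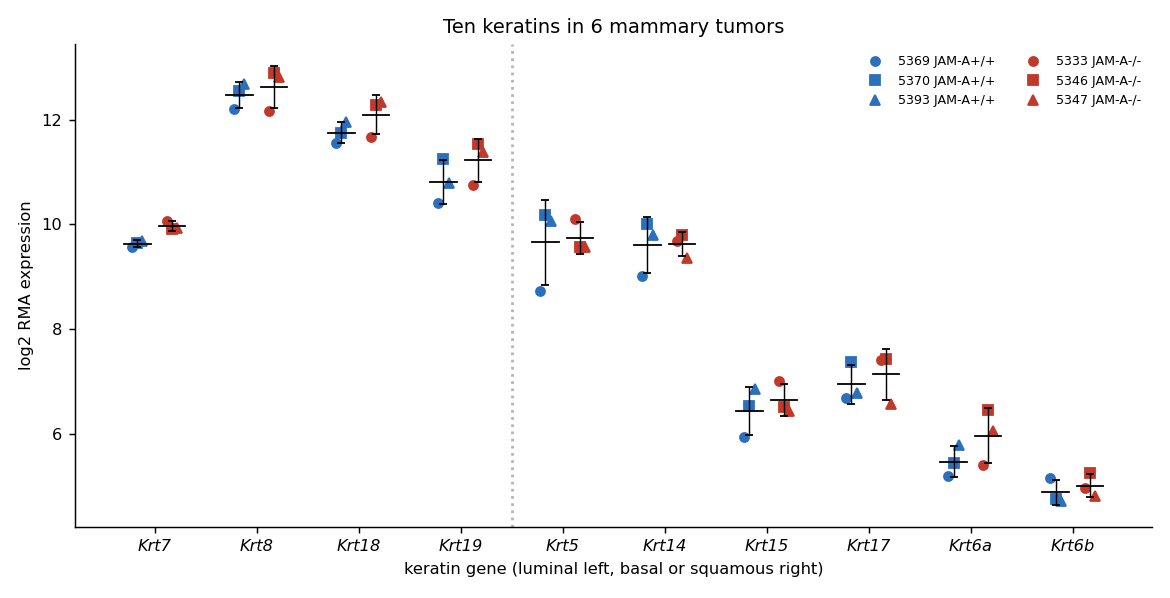
Log2 RMA expression (y axis) of the 10 keratins (x axis) in each of the 6 tumors, JAM-A+/+ in blue and JAM-A−/− in red, with the mean (horizontal bar) and SD (error bar, n = 3). Krt7 is the gene whose groups do not overlap, and tumor 5369 lies at the bottom for Krt5 (8.73) and Krt14 (9.01). Heights of different genes are not comparable, because each probe set has its own response.

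Among the luminal keratins, Krt7, a type II keratin of simple and ductal epithelium, was measured at 10.07, 9.91 and 9.93 without JAM-A and at 9.56, 9.65 and 9.69 with JAM-A. Every JAM-A−/− tumor lay above every JAM-A+/+ tumor, a separation that 15.8% of all probe sets showed. The log2 fold change of 0.34 (SE 0.11) corresponds to 1.26-fold (95% interval 1.06 to 1.51), under the 1.3-fold threshold, with an adjusted p of 0.389 in limma. The spread within each genotype was narrow, 0.16 in the JAM-A−/− and 0.13 in the JAM-A+/+ tumors.

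Krt8, the type II partner of the luminal pair, was measured at 12.17, 12.89 and 12.82 without JAM-A and at 12.2, 12.54 and 12.67 with JAM-A. Its type I partner Krt18 was at 11.66, 12.27 and 12.34 against 11.56, 11.74 and 11.96. For both genes the groups overlapped through tumor 5333, which lay among or below the JAM-A+/+ tumors, while the other JAM-A−/− tumors lay above all of them. The log2 fold changes were 0.16 for Krt8 (SE 0.22, limma adjusted p = 0.812) and 0.34 for Krt18 (SE 0.20, limma adjusted p = 0.566).

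Krt19, the smallest type I keratin and a partner of Krt8 in luminal cells, was measured at 10.76, 11.54 and 11.38 without JAM-A and at 10.41, 11.25 and 10.79 with JAM-A. Tumor 5370 reached into the range of the JAM-A−/− tumors. The log2 fold change was 0.41 (SE 0.27, 1.33-fold with a 95% interval of 0.866 to 2.04, limma adjusted p = 0.587), above the fold threshold and short of the p threshold. Without tumor 5333, Krt18 at 0.55 and Krt19 at 0.64 met the signature criteria, and so did Krt19 at 0.63 without tumor 5370.

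Of the basal pair, Krt5, the type II keratin of the basal layer, was measured at 10.1, 9.56 and 9.56 without JAM-A and at 8.73, 10.17 and 10.07 with JAM-A. Its type I partner Krt14 was at 9.69, 9.8 and 9.36 against 9.01, 10.01 and 9.8. In both genes tumors 5370 and 5393 lay close to or above the highest JAM-A−/− tumor, and tumor 5369 lay below all others. The log2 fold changes were 0.08 for Krt5 (SE 0.37, limma adjusted p = 0.95) and 0.01 for Krt14 (SE 0.26, limma adjusted p = 0.992), and their 95% intervals of -0.79 to 0.95 and -0.60 to 0.62 reached past the fold threshold in both directions. The sign turned with single tumors: without tumor 5369 the log2 fold change was -0.38 for Krt5, -0.29 for Krt14 and -0.04 for Krt15, without tumor 5333 it was -0.10 for Krt5 and -0.03 for Krt14, and without tumor 5346 it was -0.08 for Krt14, none of which met the criteria. Both scalings by quantiles turned the sign of Krt5 and Krt14 as well, and that of Krt8.

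Krt15, a type I keratin of basal and progenitor cells in stratified epithelium, was measured at 7.01, 6.51 and 6.44 without JAM-A and at 5.95, 6.54 and 6.85 with JAM-A. The groups overlapped, and tumor 5369 was again the lowest. Krt17, a type I keratin of activated epithelium, was at 7.41, 7.43 and 6.58 against 6.69, 7.37 and 6.78, with the lowest value in JAM-A−/− tumor 5347. The log2 fold changes of 0.21 (SE 0.25, limma adjusted p = 0.782) and 0.19 (SE 0.27, limma adjusted p = 0.815) were smaller than their standard errors.

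Krt6a, a type II keratin of wounded and squamous epithelium, had the largest log2 fold change of the 10, 0.50 (SE 0.27, 1.41-fold with a 95% interval of 0.91 to 2.19, limma adjusted p = 0.529). It was measured at 5.41, 6.45 and 6.05 without JAM-A and at 5.19, 5.44 and 5.79 with JAM-A. Tumor 5346 was highest and tumor 5333 lay inside the JAM-A+/+ range, and without tumor 5333 the difference was 0.78 and met the criteria. Its close relative Krt6b was at 4.97, 5.26 and 4.82 against 5.16, 4.77 and 4.73, a log2 fold change of 0.13 (SE 0.17, limma adjusted p = 0.798), and it was the only 1 of the 10 among the 40% of probe sets with the lowest mean. Krt6a and Krt6b, like Krt14, Krt16 and Krt17, are close in sequence, and whether their probes respond to each other's transcripts was not checked.

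**Figure D2:**
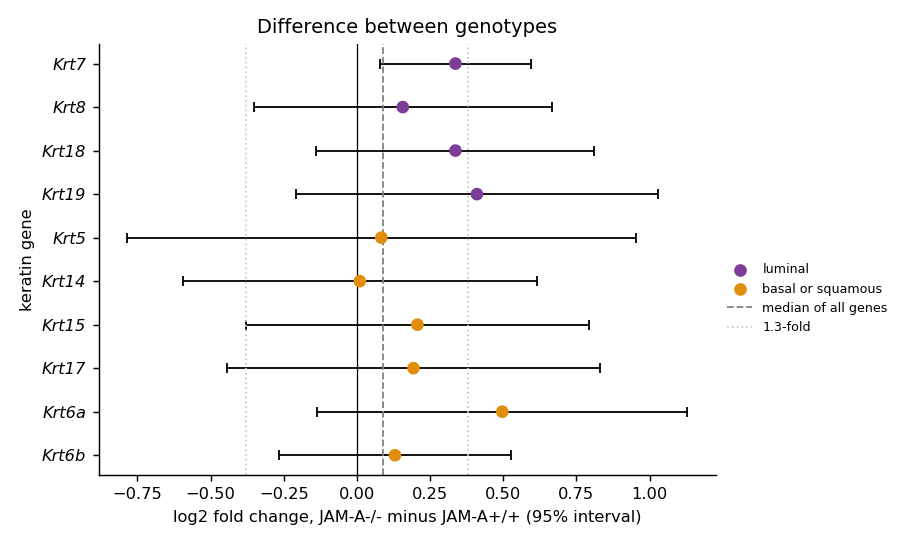
Log2 fold change (x axis, JAM-A−/− minus JAM-A+/+) of each keratin (y axis) with its 95% interval from limma, luminal genes in purple and basal or squamous genes in orange. The dashed line is the median of all genes, 0.09, and the dotted lines mark 1.3-fold. The interval of Krt7 alone excludes 0.

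With every gene centred on its own average of the 6 tumors and the genes of a set averaged, the luminal keratins lay at -0.16, 0.33 and 0.29 without JAM-A and at -0.39, -0.03 and -0.05 with JAM-A. The basal or squamous keratins lay at 0.17, 0.24 and -0.13 against -0.47, 0.12 and 0.07. Tumor 5369 was low in both sets, and was the lowest of the 6 tumors for 7 of the 10 keratins. In bulk tumor RNA, fewer cells of a type and less RNA per cell cannot be told apart.

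The balance of the sets, luminal minus basal or squamous, was -0.33, 0.09 and 0.42 without JAM-A and 0.08, -0.15 and -0.12 with JAM-A. The JAM-A−/− tumors spanned the whole range, with tumor 5333 at the basal end and tumor 5347 at the luminal end, and the JAM-A+/+ tumors lay between them. The spread of the arrays differed as well, with quartiles 3.41, 3.61 and 3.74 apart without JAM-A and 3.27, 3.5 and 3.53 with JAM-A. It was smallest in tumors 5369 and 5333, which were lowest for the luminal keratins, and largest in tumor 5347. The part of array spread in the balance was not tested. The group means were 0.06 ± 0.38 (SD, n = 3) and -0.06 ± 0.13 (SD, n = 3), so the difference of 0.12 was smaller than the spread within the JAM-A−/− group. Against Krt5 and Krt14 alone, the balance was -0.40, 0.30 and 0.49 without JAM-A and 0.39, -0.46 and -0.33 with JAM-A, where tumor 5369 moved from the middle to the luminal side. With quantile normalization between the arrays, the median log2 fold change was 0.16 for the luminal and 0.21 for the basal or squamous keratins, the opposite order.

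**Figure D3:**
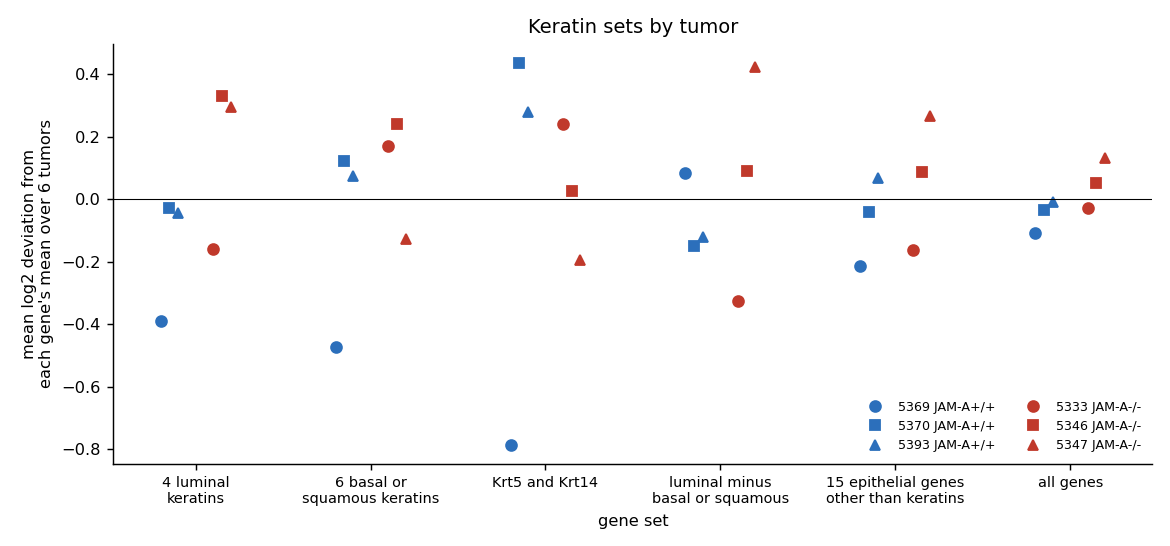
Mean log2 deviation (y axis) of gene sets (x axis) in the 6 tumors, JAM-A+/+ in blue and JAM-A−/− in red, each point 1 tumor. Tumor 5369 is low for both keratin sets, and the luminal minus basal or squamous balance runs from -0.33 to 0.42 within the JAM-A−/− group.

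Epithelial genes other than keratins, 15 measured genes such as Epcam and Cdh1 with a median log2 fold change of 0.17, deviated by -0.16, 0.09 and 0.27 without JAM-A and by -0.21, -0.04 and 0.07 with JAM-A. Tumors 5333 and 5369 were the lowest of their groups, as they were for the luminal keratins. None of the 15 met the criteria (2 without tumor 5333), against 4.73% of all genes as higher and 0.592% as lower. Rab25, a small GTPase of epithelial recycling, came nearest at 0.34 (SE 0.16, limma adjusted p = 0.491). Tumor 5369 was also the lowest for markers of fibroblasts (-0.63), endothelium (-0.54), macrophages (-0.36) and adipocytes (-1.08), as mean deviations over 9, 8, 8 and 7 genes. The part of these differences in the keratin values was not tested.

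The keratins were also compared with each other by the shape of their profile over the 6 tumors, as the root mean square distance between deviations from each gene's own mean, a description over 6 points that share the same arrays. Krt8 and Krt18 lay 0.11 apart on the log2 scale. Only 1.06% of the other 19937 genes were nearer to Krt8 than Krt18 was, at rank 212. For Krt5, the nearest keratins of the 10 were Krt15 at rank 18 and Krt14 at rank 19, but at wider distances of 0.254 and 0.257. The median distance of all genes from Krt5 was 0.512. From the other side, Krt5 was at rank 904 for Krt14 and 1009 for Krt15. Krt6a was nearest to the luminal gene Krt18, at a distance of 0.18 and rank 81, rather than to its basal or squamous companions. For Krt18, Krt6a was at rank 2872.

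The 4 keratins with the widest range over the tumors were Krt5, Krt6a, Krt19 and Krt15. The genes with the profiles most like that of Krt5 were Bmf, Kcnk6 and Slc2a10, at distances of 0.169, 0.178 and 0.193. Those nearest to Krt6a were Prkg1, Ldhb and Lix1l, and those nearest to Krt15 were Tns4, Dgke and Cdhr2. Nearest to Krt19 were Dpysl2, Col4a2 and Vim, at 0.0687, 0.0843 and 0.089. Vim, vimentin, is the intermediate filament of mesenchymal cells, and was measured at 11.14, 11.89 and 11.72 without JAM-A and at 10.67, 11.41 and 10.95 with JAM-A. Both genes were highest in tumor 5346 and lowest in tumor 5369.

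The arrays measured 52 keratin genes in all, 27 of type I, 24 of type II and Krt222, which was counted with neither. They sit in 2 clusters, 27 genes on chromosome 11, with 4 of the 10, and 25 on chromosome 15, with 6 of the 10, while F11r is on chromosome 1. Of the 42 keratins outside the 10, 1 met the signature criteria as higher and none as lower, against 4.73% and 0.592% of 19938 genes. A log2 fold change above 0 was found for 25, or 59.5%, against 71.8% of all genes, and the median was 0.02. Their mean level was 5.37 to 5.51 in the JAM-A−/− and 5.23 to 5.41 in the JAM-A+/+ tumors, below the array medians of 6.23 to 6.34. The gene that met the signature criteria was Krt79, a type II keratin known from the ducts of sebaceous glands. It was at 8.03, 7.92 and 8.01 without JAM-A and at 7.04, 7.34 and 7.44 with JAM-A. The groups did not overlap, and the log2 fold change was 0.71 (SE 0.14, limma adjusted p = 0.218).

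Krt1 and Krt10, the pair of cornifying epidermis, were high in a single tumor. Krt1 was measured at 9.36 in JAM-A−/− tumor 5346 and between 4.65 and 5.7 in the other 5 tumors, and Krt10 at 8.66 in tumor 5346 and between 5.83 and 6.41 in the others. Both genes were singled out after their values were seen. Their genotype differences of 1.21 (SE 1.12) for Krt1 and 0.89 (SE 0.65) for Krt10 did not pass the test. Without tumor 5346 the values were -0.30 for Krt1 and 0.02 for Krt10. None of the other keratins outside the 10 exceeded every other tumor by more than 0.5 in any tumor.

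**Figure D4:**
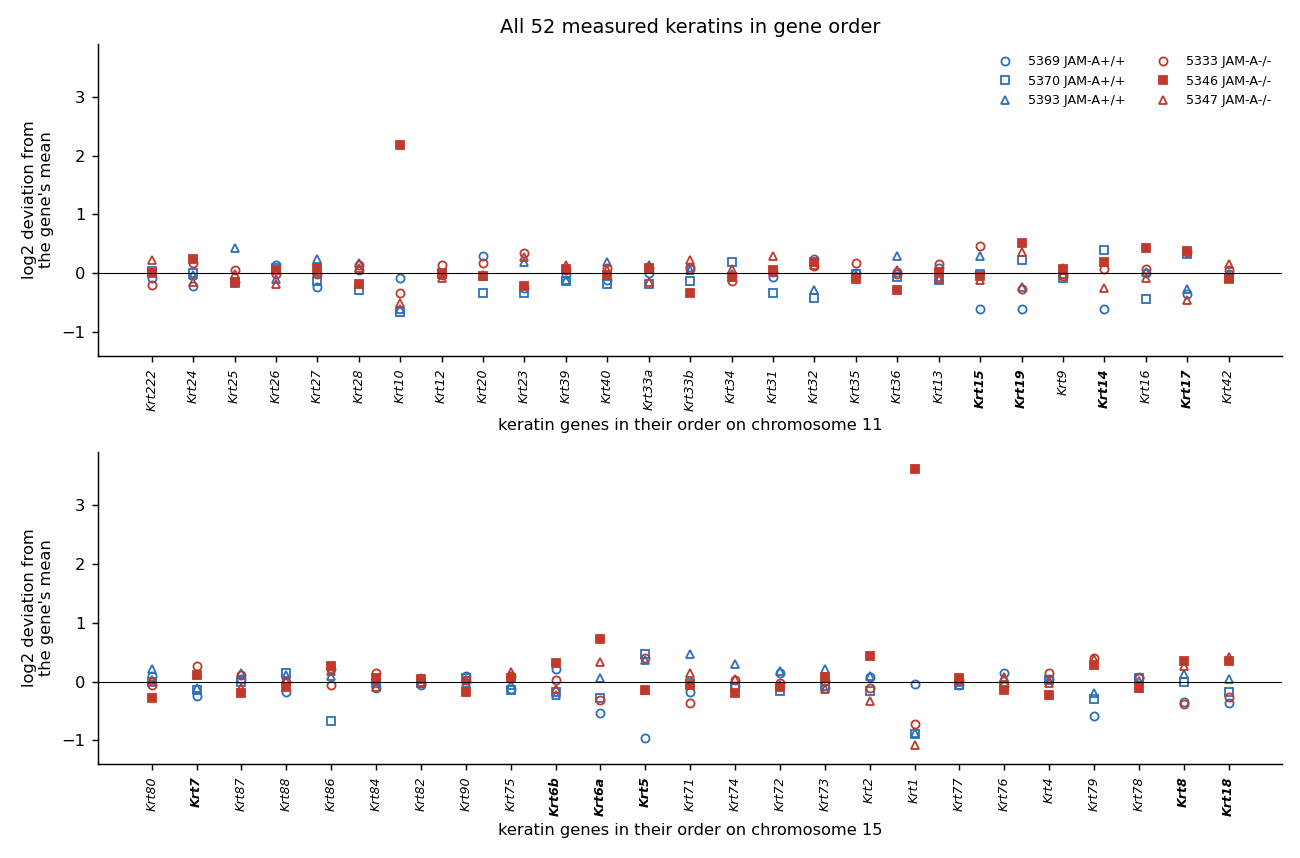
Log2 deviation from each gene's mean (y axis) of the 52 measured keratins in their order on chromosome 11 (top) and chromosome 15 (bottom), with the 10 keratins in bold, JAM-A+/+ in blue and JAM-A−/− in red. Krt10 and Krt1 stand out in tumor 5346 (filled squares), 2.18 and 3.62 above their means, while the genes beside them do not.

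Genes of squamous differentiation were compared next. Of 26 measured genes of the squamous and cornified envelope list, 3 met the criteria, all higher in the JAM-A−/− tumors, and the median log2 fold change was 0.05 (4.73% of 19938 genes met the criteria as higher and 0.592% as lower). Sprr1a, a precursor of the cornified envelope, was at 6.75, 6.7 and 6.57 against 5.98, 5.91 and 5.93, with no overlap and a log2 fold change of 0.73 (SE 0.11, limma adjusted p = 0.198). Calml3, an epithelial calmodulin, rose by 0.49 and Pkp1, a desmosome plaque protein, by 0.41 under the criteria, with limma adjusted p values of 0.426 and 0.444. The count was 1 without tumor 5333, 5347 or 5369 or with centring on epithelial genes. In tumor 5346, 4 of the 26 genes exceeded every other tumor by more than 0.5, as Krt1 and Krt10 did, against 1.02% of all genes. They were Krtdap at 6.27, Lor at 6.45, Dsg3 at 5.54 and Lce1a1 at 4.85. With these 4, only 9 of the 26 were highest in that tumor. Ivl, involucrin, was at its lowest there, 4.19 against 4.32 to 4.96 elsewhere. So were Sprr3, at 4.22 against 4.32 to 4.67, and Evpl, at 6.95 against 6.97 to 7.07. Ivl and Sprr3, like Dsg3 and Lce1a1, lay below the array medians of 6.23 to 6.34 in all 6 tumors.

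Markers of basal and myoepithelial cells other than keratins were measured for 20 genes, with a median of 0.16. Of these, 4 met the criteria as higher and none as lower, against 4.73% and 0.592% of all genes. Acta2, smooth muscle actin, was at 9.61, 9.93 and 9.61 without JAM-A and at 8.66, 8.84 and 8.96 with JAM-A, a log2 fold change of 0.90 (SE 0.14, limma adjusted p = 0.208). Egfr, the epidermal growth factor receptor, was at 0.40, Cdh3, P-cadherin, at 0.49 and Cnn1, a smooth muscle calponin, at 0.44 under the same criteria. Above 0 were 16 of the 20, or 80%, against 71.8% of all genes. Below 0 were Jag2 at -0.13, Vsnl1 at -0.10, Lama3 at -0.08 and Mylk at -0.03. Acta2 and Cnn1 are also made by vessel walls and fibroblasts. In the endothelial list 2 of 8 genes (Eng and Pecam1) met the criteria as higher, and in the fibroblast list 2 of 9 (Col1a2 and Pdgfra). No list of vessel wall muscle was used, and the part of these tissues in the values of Acta2 and Cnn1 was not tested. Trp63, the transcription factor that defines basal cells, was at 7.17, 7.61 and 7.25 against 7.43, 7.19 and 7.31, with a log2 fold change of 0.03 (SE 0.15, limma adjusted p = 0.95). Without tumor 5369 or with centring on epithelial genes, 1 of the 20 met the criteria, and without tumor 5346, 2 did.

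Markers of luminal cells other than keratins were measured for 18 genes, with a median of 0.18. Of these, 4 met the criteria as higher and none as lower, against 4.73% and 0.592% of all genes. Above 0 were 14 of the 18, or 77.8%, against 71.8% of all genes. Below 0 were Muc1 at -0.30, Aldh1a3 at -0.27, Elf5 at -0.24 and Cd24a at -0.07. Xbp1, a regulator of secretory cells, was at 12.78, 12.73 and 12.87 without JAM-A and at 12.35, 12.38 and 12.33 with JAM-A, with no overlap and a log2 fold change of 0.44 (SE 0.11, limma adjusted p = 0.277). Esr1, the estrogen receptor, was at 0.38, or 1.301-fold, just over the threshold. Prom1, a surface protein of hormone-sensing luminal cells, was at 1.09, and far lower in tumor 5369 (6.79) than in the other 5 tumors (8.14 to 9.04). Mfge8, a milk fat globule protein, was at 0.49. Without tumor 5333, 10 of the 18 met the criteria, and without tumor 5346, 1 did.

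Of 18 anchors and binding proteins of the keratin filament, 2 met the criteria, both higher, against 4.73% of all genes as higher and 0.592% as lower. These were Dsc2, a desmosomal cadherin, at 0.41 (SE 0.15, limma adjusted p = 0.41), and Pkp1. None met them without tumor 5347 or with centring on epithelial genes, 4 did without tumor 5333, and 1 did without tumor 5369 or 5370 or with either quantile normalization. Of 16 intermediate filament genes other than keratins, Des, the muscle filament desmin, met the criteria alone at 0.86 (SE 0.24, limma adjusted p = 0.336), and the count was 2 without tumor 5370 and 3 without tumor 5333. Skeletal muscle genes differed in the same direction, with 3 of 10 meeting the criteria as higher (Myh2, Myh1 and Acta1), and their part in the value of Des was not tested.

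Of 20 transcription factors known to act on epithelial keratin genes, 1 met the criteria and it was lower, against 0.592% of all genes. Grhl3, a grainyhead factor of epidermal differentiation, was at 5.79, 6.15 and 5.89 without JAM-A and at 6.34, 6.42 and 6.79 with JAM-A, with no overlap, and its log2 fold change was -0.57 (SE 0.16, limma adjusted p = 0.334). The count was 2 without tumor 5333 or with quantiles equalised over the listed probe sets. Over these 7 lists, 127 distinct genes were measured, of which 13 met the criteria as higher and 1 as lower, against 4.73% and 0.592% of all genes. The split moved with the scaling in the lists and in all genes alike. Higher calls were 92.9% of the calls in the lists and 88.9% of those in all 19938 genes, against 94.1% and 96.1% with median centring, 75% and 76.6% with quantile normalization between the arrays, 53.8% and 54.2% with that over the listed probe sets, and 57.1% and 49.5% with centring on epithelial genes. No member of the lists of macrophages, lymphocytes or adipocytes met the criteria (nearest were Fcgr1, Cd4 and Lep). Of 6 milk genes 1 was lower (Csn1s1, at -1.70), and of 9 salivary gland genes 1 was higher (Aqp5, at 0.82). Dcpp1, Dcpp2 and Dcpp3 of the salivary list were high in tumor 5333, at 11.24, 10.72 and 7.92 against at most 8.22, 6.08 and 6.38 elsewhere. Smr3a and Muc19 were also highest there, at 6.26 and 5.28. Prol1 was highest in tumor 5369, at 9.19 against 6.89 in tumor 5333, and Bpifa2 and Aqp5 were highest in tumor 5347. Amy1 was at its lowest in tumor 5333, 5.2. The mean deviation of the 9 genes was 0.97 in tumor 5333 and at most 0.06 in the others. Whether tumor 5333 held salivary tissue was not tested, nor was any part of such tissue in its keratin values.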

How the data were processed

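Early tumors of MMTV-PyVmT mice with and without JAM-A (n = 3 each) were measured on Affymetrix Mouse Gene 1.0 ST arrays. Groups were taken from the titles; the tissue label of tumor 5347 omits its loss of JAM-A. The deposited values are log2 expression, made by the authors with RMA in Affymetrix Expression Console 1.1 per the labels' processing notes. RMA normalizes probes between arrays before it summarises them, so total RNA is not measured. The deposited summaries still differ in spread (distance between quartiles 3.27 to 3.74), and values carry 2 decimals. Arrays have no read depth, and their number limits the precision.

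Differences of 35557 probe sets were computed in R 4.3.3 by limma 3.58.1, as a linear model with empirical Bayes, no covariate and Benjamini-Hochberg adjustment. The signature thresholds come from the study's signature table, which names no test. An exact permutation test of 3 against 3 cannot go below p = 0.1. Gene names are those of the platform annotation (21789 probe sets with 1 symbol, 1621 with several, 12147 unlisted); gene order and promoters are RefSeq's (GRCm38.p6). The keratins and the 17 gene lists were chosen with earlier results of these data known. Named were the keratins, F11r, up to 3 called genes of a list or else the nearest, and fixed markers. Cnn1, Mfge8, Krt1, Krt10, Krtdap, Dsg3 and Lce1a1 were added after their values were seen. The same holds for Sprr3, Evpl, Muc1, Aldh1a3, Elf5, Cd24a, Amy1, Dcpp1, Dcpp2 and Dcpp3. It also holds for Jag2, Vsnl1, Lama3, Mylk, Smr3a, Muc19, Prol1 and Bpifa2. Limma was tested on simulated data. Alternatives were other tests, scalings, filters and left-out tumors.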

Additional observations from a re-analysis of the deposited data

How the results depend on the processing

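Under 15 alternatives, 0 of the 10 keratins had an adjusted p under 0.05 (lowest 0.184, limma with array weights, Krt6a; 1 of 10 at an unadjusted p under 0.05 in the reported fit). Of 149 pairs of a keratin and an alternative, 126 kept direction and side of the signature criteria, 7 came to meet them and 16 changed sign. Array weights brought 2 keratins to the criteria (Krt18 and Krt6a), median centring 1 (Krt7), dropping the fold threshold 1 (Krt7), and leaving out 1 tumor 0 to 3. Krt8 turned to -0.0547 with quantile normalization between arrays and -0.0392 over listed probe sets. Krt5 turned to -0.245 with array weights, -0.0427 with centring on epithelial genes, and -0.085 and -0.0931 with these quantile scalings, and leaving out 1 tumor gave -0.38 to 0.34. Krt14 turned to -0.0549, -0.116, -0.16 and -0.169 in the same order, and ranged from -0.288 to 0.212 without 1 tumor. Krt15 ranged from -0.0417 to 0.408 and Krt1, whose alternatives were added after its values were seen, from -0.303 to 2.05 without 1 tumor. With array weights Krt1 at 2.93 and Krt10 at 1.89 met the signature criteria (limma adjusted p = 0.223 and 0.191). The alternatives of Krt10 were also added after its values were seen.

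The luminal minus basal or squamous difference of medians was 0.175 and lay between -0.0499 (quantile normalization between arrays) and 0.425 (without tumor 5333), each within 1 SD between tumors (0.28) of it. Of the listed genes, 14 met the criteria, 7 with centring on epithelial genes, which moved the median of all genes by -0.126, and 8 to 24 without 1 tumor. Calls in the lists were 13 higher and 1 lower (944 and 118 in all genes), 16 and 1 with median centring (1620 and 66), 9 and 3 with quantile normalization between arrays (570 and 174), 7 and 6 with that over listed probe sets (359 and 303), and 4 and 3 with centring on epithelial genes (259 and 264). No paired analysis was possible because no litter is given for single arrays. The causes were not tested.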

Other observations

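Itgb4, the integrin subunit that anchors the keratin filaments of basal cells at hemidesmosomes, was measured at 10.9 in JAM-A−/− tumor 5346 and between 9 and 9.65 in the other 5 tumors. Its neighbours on chromosome 11 were high in the same tumor. Of the 24 consecutive measured genes from Trim80 to Unc13d, 18 exceeded every other tumor by more than 0.5 on the log2 scale, among them Grb2, an adaptor of receptor tyrosine kinases, at 9.09 against 7.68 to 8.32, Sumo2 at 12.89 against 11.69 to 12.03, Mrps7 at 11.1 against 9.05 to 9.78 and Llgl2, a polarity protein, at 9.75 against 8.06 to 8.6. In windows of 21 consecutive genes along all chromosomes, the highest count of such genes was 16 here, the next in this tumor was 5 on another chromosome, and the highest in any other tumor was 4. The stretch begins 230 measured genes beyond the last keratin on chromosome 11, and Krt10 was the 1 of 27 keratins there that exceeded every other tumor by more than 0.5. The stretch was found after the values were seen, and DNA was not measured.

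Further genes of cornified epithelium outside the lists, Hrnr at 7.72 and Calm4 at 6.77, were high in tumor 5346 (5.32 to 5.73 and 5.14 to 5.46 in the others), chosen after their values were seen.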
